A study of Sus scrofa with 599 samples.

Results

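The basement membrane genes examined here were 10 in number: COL4A1, COL4A2, COL4A3 and COL4A4, which encode chains of collagen IV, LAMA2, LAMA4, LAMB1 and LAMC1, which encode laminin chains, NID1 (nidogen) and HSPG2 (perlecan). They were taken by symbol from the table of 21280 protein-coding genes (PCGs), and 9 of the 10 were matched to a row through the Ensembl identifiers; the expression of LAMA2 was not analysed here. The list was chosen by the level of COL4A4 in part, which was high in the backfat of weight-loss pigs in these same data. The weight-gain against weight-loss contrast in that tissue is therefore given as a description for every gene, with no test, and so is COL4A4 in each comparison that uses those libraries.

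The pigs were female Bama miniature pigs, 2 years old by the study's methods, in 3 nutritional groups. NC pigs were fed normally, WG pigs were fattened on a high-fat feed over 22 weeks, and WL pigs were fattened alike and then restricted to 10% of the normal caloric intake over 12 weeks. WL thus differs from WG by the restriction and by the added time. Total RNA-seq covered 4 adipose tissues (ATs): the greater omentum (GOM; 9 NC, 45 WG and 10 WL samples), the mesenteric depot (MAD; 12, 36 and 10) and the retroperitoneal depot (RAD; 12, 39 and 10), which are visceral, and the upper layer of backfat (ULB; 5, 38 and 10), which is subcutaneous. Hi-C of 240 samples and 18 pooled H3K27ac tables of the same tissues were used as further readouts.

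The libraries held 3337098 to 22939420 estimated counts on PCGs, with a median of 16791659. PCGs took 65.6% to 96.9% of the sum of TPM, an abundance per transcript length and library, and 40 libraries were below 88%, among them 7 of 9 in NC GOM and 6 of 10 each in WL GOM and WL MAD. All 7 adipocyte markers were above 0.5 TPM at the median in each of the 12 groups, with a summed level of 3939 to 34913 TPM per library. In 1 WG library of GOM (replicate 35) and 1 of MAD (replicate 6) the counts were fewest, 1 WG library of MAD (replicate 39) held COL4A3 and COL4A4 far above its group, and 1 NC library of MAD (replicate 1) had 10729 TPM of summed smooth-muscle markers against a group median of 1050.5; the values without these 4 are given for COL4A4 in MAD, the ratio of COL4A1 to COL4A2 and the correlations. By the study's methods the 4 ATs were taken from each carcass. Samples of 1 AT thus came from separate pigs, while samples of different ATs can share a pig, and the labels do not say which do. The p-values within 1 AT measure the spread between its samples only, and those between ATs do not account for a shared pig. In bulk tissue, fewer cells of a type and less RNA per cell cannot be told apart.

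A basement membrane is the thin sheet of matrix that surrounds each adipocyte and underlies the endothelium of each capillary. Laminin trimers, made of an alpha, a beta and a gamma chain, assemble at the cell surface, and a network of collagen IV trimers gives the sheet its tensile strength, while nidogen and the heparan sulfate proteoglycan perlecan link the networks. Collagen IV occurs as a ubiquitous trimer of alpha1 and alpha2 chains and as restricted trimers, among them alpha3-alpha4-alpha5, best known from the kidney glomerulus.

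The collagen IV genes lie in head-to-head pairs, and the pairs frame the results that follow. In Sscrofa11.1, COL4A1 spans chr11:76858332-76997409 on the minus strand and COL4A2 chr11:76996885-77161617 on the plus strand, and these models overlap by 525 bases. In the RefSeq annotation, 133 bases separate the start of COL4A1 from the first COL4A2 exon that begins beyond it. COL4A4 spans chr15:128472228-128612302 on the minus strand and COL4A3 chr15:128611640-128763331 on the plus strand, and these models overlap by 663 bases at their starts. The 133 bases between COL4A1 and that COL4A2 exon (chr11:76997410-76997542, plus strand) and the 200 bases upstream of COL4A4 (chr15:128612303-128612502, minus strand, within the COL4A3 gene model) are shown because COL4A1 was called in diet comparisons in which COL4A2 was not, and because COL4A3 and COL4A4 were both highest in WL ULB. Capitals mark CCAAT and GGGCGG, searched on both strands, so that CCGCCC is GGGCGG on the other strand.
COL4A1 to COL4A2: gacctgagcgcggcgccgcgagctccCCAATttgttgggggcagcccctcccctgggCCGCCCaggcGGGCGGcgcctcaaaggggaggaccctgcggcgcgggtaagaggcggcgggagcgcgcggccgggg
COL4A4 upstream: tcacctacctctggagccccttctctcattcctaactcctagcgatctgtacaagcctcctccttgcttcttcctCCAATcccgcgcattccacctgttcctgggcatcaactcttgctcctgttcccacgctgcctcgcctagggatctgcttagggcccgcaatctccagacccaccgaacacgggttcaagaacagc

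The region between COL4A1 and COL4A2 held 1 CCAAT at position 27 and 2 GGGCGG at positions 58 and 68, counted from its 5′ end. Of windows of the same length upstream of 19532 gene starts, 21.6% held a CCAAT and 39.1% a GGGCGG. The window of COL4A4 held 1 CCAAT at position 76 and no GGGCGG, against shares of 27.7% and 43.8% for windows of that length. TATAAA occurred in neither. The GC content was 78.9% in the first and 57% in the second.

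Levels set the genes apart before any comparison. COL4A1 had a mean of 559.7 TPM over all RNA-seq samples (rank 193 of 21280 PCGs), COL4A2 386.1, LAMC1 267.5, LAMA4 216.4, LAMB1 159.6, HSPG2 144.9 and NID1 137.2 TPM. COL4A4 and COL4A3 were near the limit of detection, with means of 0.98 and 0.47 TPM. The detection limit asked for more than 0.5 TPM in 80% or more of a group's samples. COL4A4 met it only in the 4 WL groups and COL4A3 only in WL ULB, so that both entered the filtered fit only through the groups in which they were high. Their differences are therefore given as descriptions, and all counts of members called are over the other 7. COL4A4 in the visceral ATs was also fitted with no filter on low genes, where its entry did not depend on a group.

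**Figure D1:**
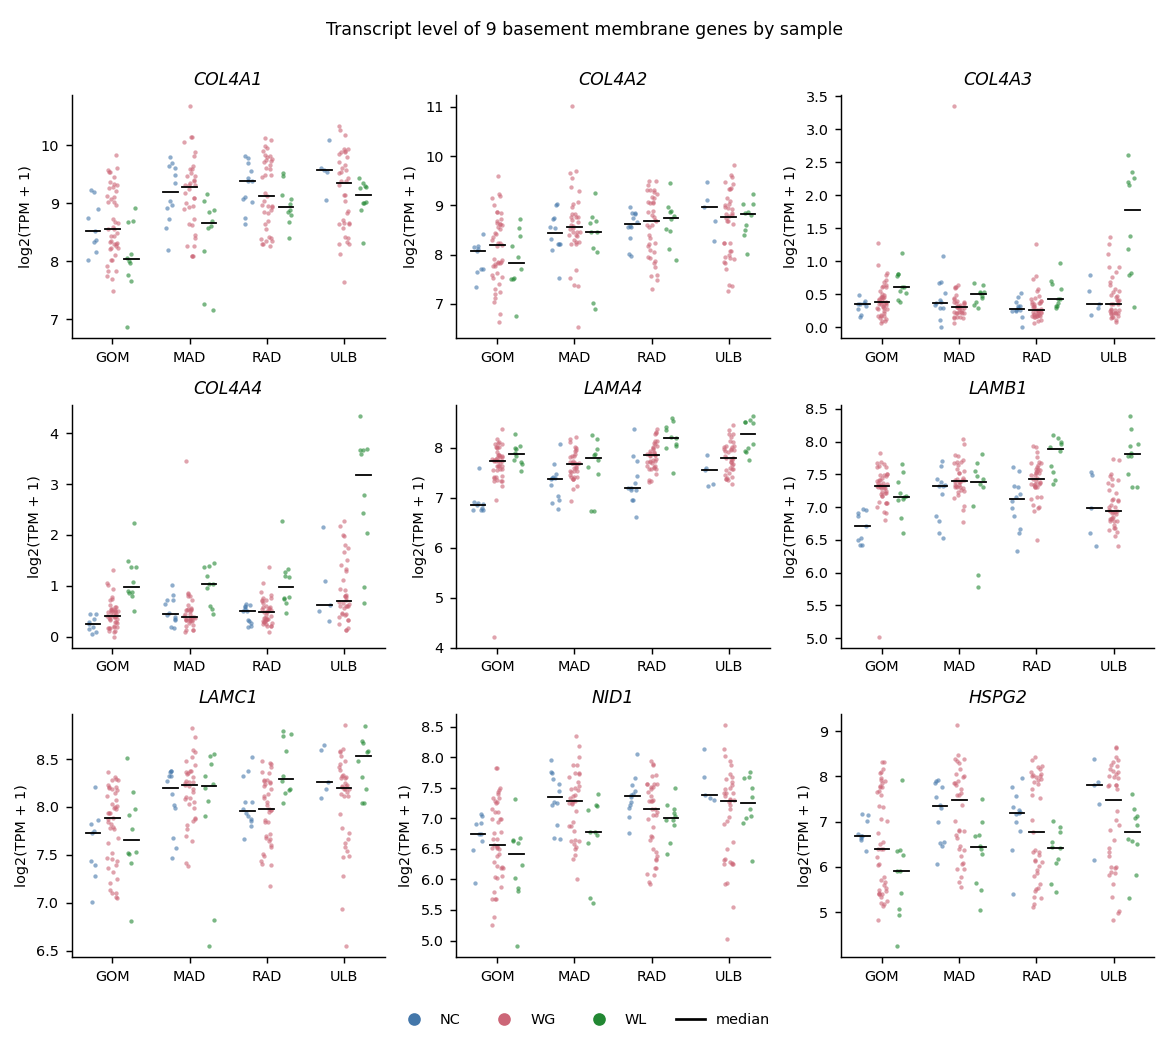
Each panel plots 1 gene, with the TPM of each sample as log2(TPM + 1) on the vertical axis and the 4 ATs on the horizontal axis; points are samples coloured by group and bars are group medians. COL4A3 and COL4A4 stand out in WL ULB, with medians of 2.53 and 8.47 TPM, and HSPG2 spreads widely within WG, from 27.2 to 321 TPM in GOM.

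COL4A4, whose product is the alpha4 chain, was low in NC and WG and higher in WL in each AT. In ULB, the contrast that chose it, the level was 0.24, 0.41, 0.53, 1.13 and 3.48 TPM in the 5 NC libraries, from 0.09 through a median of 0.64 to 3.81 TPM in WG, and from 0.59 through 8.47 to 19.3 TPM in WL. Of the 10 WL libraries 7 were above the highest WG library, while replicates 6, 8 and 10, at 3.12, 0.96 and 0.59 TPM, lay within the WG range. The log2 fold change of WL over WG was 2.80 in ULB and that of WL over NC 2.57, both descriptions.

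The visceral ATs were not used for that choice. By the study's methods, however, every AT was taken from each carcass, so the WL pigs behind the choice can recur here. The adjusted p-values of COL4A4 given here are therefore not independent of that choice. In GOM, COL4A4 ranged from 0.03 through 0.19 to 0.37 TPM in NC, from 0 through 0.33 to 1.48 TPM in WG and from 0.42 through 0.98 to 3.71 TPM in WL. In RAD the NC libraries reached 0.55 TPM, the WG libraries had a median of 0.40 TPM and the WL libraries one of 0.99 TPM, with 9 of 10 above every NC library. In the fit with no filter, COL4A4 was higher in WL than WG in GOM by 1.87 ± 0.29 on the log2 scale (SE; adjusted p = 1.2e-05 by edgeR's quasi-likelihood test) and in RAD by 1.45 ± 0.27 (adjusted p = 0.00036). In MAD the difference was 0.80 ± 0.47 (adjusted p = 0.21). In that fit 3.31% of all PCGs were called higher in WL than WG in GOM, 9.69% in MAD and 1.79% in RAD. WG replicate 39 of MAD held 9.94 TPM of COL4A4, and the filtered fit gave 0.78 with it and 1.55 without WG replicates 6 and 39, as descriptions. From NC to WL, with no filter, COL4A4 was higher in GOM (2.69 ± 0.45, adjusted p = 4.0e-05), in RAD (1.46 ± 0.36, adjusted p = 0.0034) and in MAD (1.05 ± 0.33, adjusted p = 0.017), where 14.7%, 8.46% and 12.1% of all PCGs were called higher. The NC and WG contrasts share the WL libraries.

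Among the 10 WL replicates, number 9 had the highest COL4A4 of each AT, with 3.71 TPM for GOM, 1.72 for MAD, 3.82 for RAD and 19.3 for ULB, and the highest COL4A3 too. The labels do not say that a number marks a pig. Without replicate 9, an alternative added after the data were seen, the filtered fit gave a difference from WG to WL of 1.43 in GOM and 1.11 in RAD, in place of 1.83 and 1.45, and from NC to WL of 2.17 and 1.07, in place of 2.58 and 1.41, all as descriptions, while in MAD COL4A4 no longer met the detection limit. Between the visceral ATs of WL, COL4A4 had medians of 0.98, 1.04 and 0.99 TPM in GOM, MAD and RAD. ULB was higher by 2.46 over GOM, 2.84 over MAD and 2.64 over RAD on the log2 scale, which are descriptions.

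COL4A3, whose product is the alpha3 chain, followed COL4A4 at a lower level. In the 5 NC libraries of ULB it was at 0.14, 0.23, 0.28, 0.46 and 0.74 TPM, and in WL ULB it ranged from 0.24 through 2.53 to 5.10 TPM, with 8 of 10 libraries above every NC library. The differences of WL ULB from NC and WG were 2.47 and 2.46 on the log2 scale, and within WL those of ULB from GOM, MAD and RAD were 1.95, 2.53 and 2.45, all descriptions. The third chain of that trimer differed in direction: COL4A5 fell from a median of 5.50 TPM in NC to 3.05 TPM in WL in ULB (log2 -0.94 ± 0.30, adjusted p = 0.034). Markers of other cells that backfat can hold were also read. WT1, the 1 mesothelial marker matched of 5, was at 0 to 1.71 TPM in WL ULB. Skeletal muscle markers (3 matched of 5) summed to 0.57 to 7.39 TPM, with ACTA1 and TNNT3 under 0.5 TPM at the median. Schwann cell markers (4 of 5) summed to 16.4 to 62.3 TPM in WL ULB and 11.4 to 54.2 TPM in WG ULB, and their part in the levels of COL4A3 and COL4A4 was not tested.

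**Figure D2:**
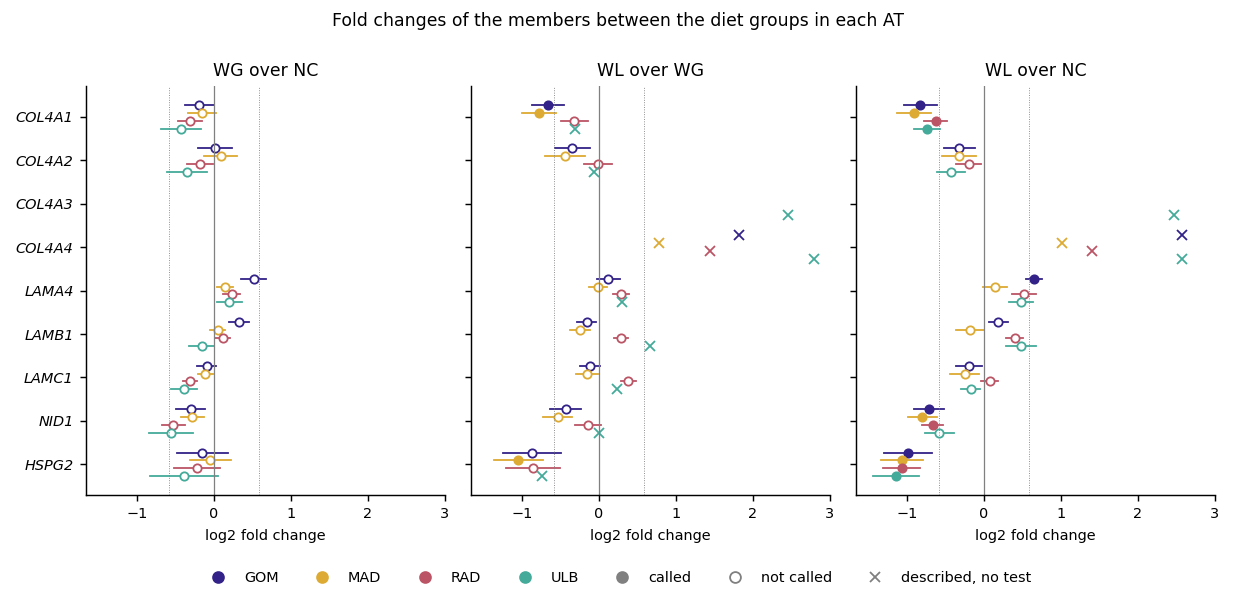
Points give the log2 fold change (horizontal axis) of each member (vertical axis) in each AT (colour), for WG over NC, WL over WG and WL over NC; lines are 1 SE, filled points were called, crosses are values with no test, among them all of COL4A3 and COL4A4, and dotted lines mark a fold change of 1.5. No member was called between NC and WG, whereas COL4A1, NID1 and HSPG2 lie left of 0 and COL4A4 right of 0 in each AT for WL over NC.

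From NC to WG no member was called in any AT, where a call needed a fold change above 1.5 and an adjusted p below 0.05. The share of all PCGs called was 26.7% for GOM, 10.7% for MAD, 16.7% for RAD and 2.38% for ULB. Of the 7 members tested, 2 had an unadjusted p below 0.05 for GOM, none for MAD, 3 for RAD and 1 for ULB, and DESeq2 also called 0 for each AT. The differences with an adjusted p below 0.05 were below the fold limit: LAMA4 (0.51 ± 0.17, adjusted p = 0.014) and LAMB1 (0.33 ± 0.13, adjusted p = 0.036) were higher in WG in GOM, and NID1 (-0.53 ± 0.15, adjusted p = 0.0048) and LAMC1 (-0.31 ± 0.09, adjusted p = 0.0053) were lower in RAD.

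From NC to WL, COL4A1, which encodes the alpha1 chain of the ubiquitous trimer, was called lower in all 4 ATs. In ULB it was at 531, 742, 766, 785 and 1092 TPM in the 5 NC libraries and from 318 through a median of 568 to 691 TPM in WL, and 5 of 10 WL libraries were below the lowest NC library. In MAD the NC libraries ranged from 292 through 588 to 885 TPM and the WL libraries from 142 through 403 to 574 TPM. The groups overlapped in each AT, with 7 to 10 of 10 WL libraries below the NC median. The log2 fold changes were -0.83 ± 0.22 in GOM (adjusted p = 0.0030), -0.91 ± 0.22 in MAD (adjusted p = 0.0022), -0.63 ± 0.15 in RAD (adjusted p = 0.0020) and -0.74 ± 0.17 in ULB (adjusted p = 0.0064). Against WG, COL4A1 was lower in WL in GOM (-0.66 ± 0.21, adjusted p = 0.033) and MAD (-0.78 ± 0.22, adjusted p = 0.0071), and the difference in RAD was -0.32 ± 0.18 (adjusted p = 0.23).

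HSPG2, the perlecan core protein, was lower in WL than NC in all 4 ATs: -0.99 ± 0.32 in GOM (adjusted p = 0.012), -1.07 ± 0.27 in MAD (adjusted p = 0.0033), -1.07 ± 0.24 in RAD (adjusted p = 0.0011) and -1.15 ± 0.30 in ULB (adjusted p = 0.014). In GOM its level ran from 80.8 through 102.4 to 144 TPM in NC and from 18 through 58.9 to 240.5 TPM in WL, where 8 of 10 libraries were below every NC library and replicate 4 was above them. NID1, which joins laminin to collagen IV, was called lower in WL in GOM (-0.71 ± 0.20, adjusted p = 0.0044), MAD (-0.80 ± 0.19, adjusted p = 0.0017) and RAD (-0.67 ± 0.13, adjusted p = 0.00046), and in ULB the difference of -0.58 ± 0.19 (adjusted p = 0.044) fell short of the fold limit. In RAD, NID1 ranged from 107 through 163 to 264 TPM in NC and from 84.1 through 128 to 179 TPM in WL.

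Of the 7 members other than COL4A3 and COL4A4, 3 were called lower in WL than NC in GOM, MAD and RAD and 2 in ULB, where 20.7%, 17.8%, 16.6% and 9.37% of all PCGs were called lower. LAMA4 was the 1 of the 7 called higher, in GOM. Higher calls were made for 15.4%, 15.2%, 10.2% and 5.39% of all PCGs in the same order. Without the libraries below 88% PCG share, 2, 1, 3 and 1 members were called lower, and 18.6%, 6.92%, 9.7% and 6.26% of all PCGs. The endothelial markers, 7 of 8 matched, summed to 445 to 715 TPM in NC GOM and 602 to 1018 TPM in WL GOM, and to 530.5 to 736 TPM in NC ULB and 587 to 978 TPM in WL ULB. Such sums also depend on the PCG share, which had a median of 79.0% in NC GOM and 87.5% in WL GOM. Of the 7, CLDN5 rose in GOM (2.10 ± 0.16, adjusted p = 5.0e-09), MAD (1.27 ± 0.35, adjusted p = 0.0056) and RAD (1.31 ± 0.28, adjusted p = 0.00092). TEK rose in GOM, RAD and ULB by 0.67, 0.72 and 0.71, while CDH5 fell in GOM (-0.62 ± 0.21, adjusted p = 0.019) and RAD (-0.65 ± 0.20, adjusted p = 0.014). Of the 8 pericyte and smooth muscle markers, 1 was called higher and 2 lower in GOM, 1 and 4 in MAD, 2 and 2 in RAD and 0 and 1 in ULB. RGS5, a marker of pericytes, fell in GOM (-2.35 ± 0.23, adjusted p = 6.5e-08), RAD (-2.63 ± 0.27, adjusted p = 4.1e-07) and ULB (-1.27 ± 0.32, adjusted p = 0.011). The 8 markers as a list did not fall with RGS5 in RAD or ULB, where their median log2 fold change was 0.22 and 0.02. That median was -0.34 for GOM and -1.03 for MAD. The 7 adipocyte markers were called higher and lower as 2 and 2 in GOM, 0 and 5 in MAD, 0 and 3 in RAD, and 0 and 1 in ULB, with a sum in MAD of 4440 to 23237 TPM in NC and 3939 to 19597 TPM in WL. Their median log2 fold change was -0.92 in MAD and -0.50 in RAD. Of the 5 macrophage markers, 3 were called lower in GOM and 3 higher in MAD (median 0.99) and 2 higher in RAD, with a sum in MAD of 127 to 406 TPM in NC and 226 to 826 TPM in WL. In ULB the 6 fibroblast and progenitor markers summed to 3057 to 4871 TPM in NC and 1430 to 2285 TPM in WL. COL1A1 among them, a chain of fibrillar collagen I, fell by 2.72 on the log2 scale (adjusted p = 0.00017). The part of these markers in the results was not tested.

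From WG to WL, HSPG2 fell in MAD (-1.05 ± 0.32, adjusted p = 0.011), with differences of -0.87 ± 0.38 in GOM (adjusted p = 0.15) and -0.86 ± 0.35 in RAD (adjusted p = 0.090). Lower calls from WG to WL were made for 2.71% of all PCGs in GOM, 9.17% in MAD and 4.13% in RAD, and for 1 of 7 members in GOM, 2 in MAD and 0 in RAD, again over the 7. None of these was called higher, and 2.55%, 8.26% and 2.24% of all PCGs were. DESeq2 called HSPG2 lower in RAD (-0.88, adjusted p = 0.040). In ULB, as a description, HSPG2 was at -0.75 and COL4A1 at -0.31 on the log2 scale. Without the libraries below 88% PCG share, COL4A1 was at -0.73 in GOM (adjusted p = 0.22) and at -0.61 in MAD (adjusted p = 0.30), and HSPG2 at -1.10 in MAD (adjusted p = 0.23), with fewer samples.

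COL4A2, the partner of COL4A1 in the alpha1-alpha1-alpha2 trimer, was called in no diet comparison. The differences from NC to WL were -0.32 ± 0.20 for GOM, -0.32 ± 0.22 for MAD, -0.20 ± 0.16 for RAD and -0.43 ± 0.18 for ULB, with adjusted p between 0.11 and 0.34. In ULB it was at 312, 413, 503, 554 and 707 TPM in the 5 NC libraries and from 258 through 452 to 605 TPM in WL. The ratio of the TPM of COL4A1 to that of COL4A2 does not depend on the scaling of a library, and it was examined after these values were seen, so that it is given as a description with no test.

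**Figure D3:**
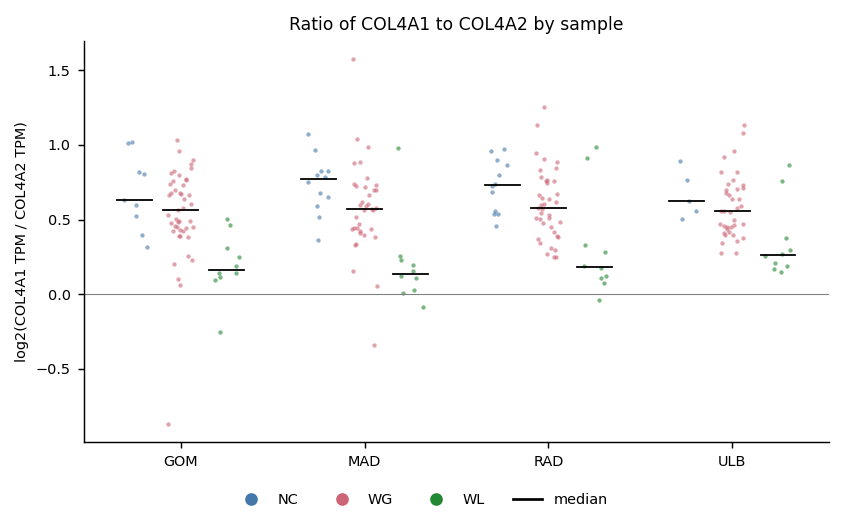
The log2 ratio of COL4A1 to COL4A2 TPM (vertical axis) is shown for each sample by AT and group, with bars at the medians. The median ratio was 1.54 to 1.71 in NC, 1.47 to 1.49 in WG and 1.10 to 1.20 in WL.

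In GOM the median ratio of COL4A1 to COL4A2 was 1.55 for NC, 1.48 for WG and 1.12 for WL, and in MAD it was 1.71, 1.49 and 1.10. In RAD it was 1.66, 1.49 and 1.13, and in ULB 1.54, 1.47 and 1.20. WL was lowest in each AT, and 8 of 10 WL libraries (9 for MAD) lay below every NC library of that AT. The mean log2 ratio of WL minus that of NC was -0.48 for GOM, -0.54 for MAD, -0.41 for RAD and -0.31 for ULB. Against WG it was -0.35, -0.37, -0.29 and -0.24. Without the libraries that stand apart the values in GOM and MAD were -0.48 and -0.54 against NC and -0.38 and -0.41 against WG. Among libraries at or above 88% PCG share, the difference from NC was -0.89 for GOM (2 NC and 4 WL libraries), -0.51 for MAD, -0.51 for RAD and -0.25 for ULB.

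Of the laminin chains, LAMA4 alone was called by diet, in 1 AT. LAMA4, the alpha4 chain of the laminins of capillaries and adipocytes, was higher in WL than NC in GOM (0.65 ± 0.10, adjusted p = 2.3e-05), with 107 through 116 to 192 TPM in NC and 184 through 233 to 311 TPM in WL. It differed by 0.52 ± 0.15 in RAD (adjusted p = 0.0093) and 0.48 ± 0.15 in ULB (adjusted p = 0.034), under the fold limit, and by 0.14 ± 0.15 in MAD (adjusted p = 0.46). LAMB1, the beta1 chain, was higher in WL than NC in RAD by 0.40 ± 0.11 (adjusted p = 0.0069), under the fold limit, and by 0.48 ± 0.19 in ULB (adjusted p = 0.083). In ULB the rise of LAMB1 from WG to WL was 0.66 as a description, with 84.0 through 122 to 213 TPM in WG and 158 through 223 to 336 TPM in WL. LAMC1, the gamma1 chain of most laminins, was called in no diet comparison and ranged from -0.25 to 0.07 from NC to WL. In RAD, LAMC1 was higher in WL than WG by 0.38 ± 0.10 (adjusted p = 0.0068), also under the fold limit.

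Between ATs, GOM had the lowest levels of most members. In NC, 3 of 7 members were called between GOM and RAD and 5 between GOM and ULB, all lower in GOM, and 0 in the other 4 pairs. This makes 8 calls over the 6 pairs, where 13% of all tests of PCGs were called. COL4A1 was higher in RAD than GOM by 0.69 ± 0.17 (adjusted p = 0.0047) and in ULB by 0.86 ± 0.22 (adjusted p = 0.0073), and COL4A2 by 0.67 ± 0.16 (adjusted p = 0.0034) and 0.90 ± 0.20 (adjusted p = 0.0028). For GOM against ULB in NC the 4 shared replicate numbers met the rule for pairing, correlations above 0.1, at r = 0.104 to 0.175. With the replicate block on these, in place of 9 GOM and 5 ULB samples, 0 members were called. Over the 6 pairs in NC, the block and the unblocked fit on shared numbers each gave 3 calls. Without the libraries below 88% PCG share, the 8 calls in NC became 0, with 2 NC libraries of GOM left.

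In WG, 3 calls were made over the 6 pairs (10.8% of all tests of PCGs): COL4A1 was higher in RAD (0.59 ± 0.12, adjusted p = 4.8e-05) and ULB (0.63 ± 0.13, adjusted p = 1.5e-05) than in GOM, and NID1 in MAD (0.61 ± 0.12, adjusted p = 7.5e-05). In WL, 10 calls were made (10.1% of all tests of PCGs were called), which were COL4A1, COL4A2, LAMB1, LAMC1 and NID1 higher in RAD and ULB than in GOM. The WL medians of COL4A1 were 261 TPM for GOM, 403 for MAD, 491 for RAD and 568 for ULB. The difference from GOM was 0.89 ± 0.19 for RAD (adjusted p = 0.0021) and 0.95 ± 0.19 for ULB (adjusted p = 0.00052). MAD, RAD and ULB were not called apart in COL4A1 in the fit with no replicate block. With the replicate block in WG, COL4A1 was no longer called between GOM and RAD. HSPG2 between GOM and MAD and COL4A2 between GOM and ULB were then called. In WL the block called LAMB1 between MAD and RAD, whose numbers met the rule for pairing, which the fit without the block did not. It also called COL4A1 and LAMB1 between MAD and ULB, and HSPG2 between GOM and ULB.

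The effect of diet on a member differed between ATs at an adjusted p below 0.05 in 1 of the contrasts tested, LAMC1 from WG to WL in RAD against MAD (0.52 ± 0.16 on the log2 scale, adjusted p = 0.042 in the fit of all 12 groups). Of all PCGs, 3.24% had an adjusted p below 0.05 in that contrast, 2.75% for MAD against GOM and 0.0531% for RAD against GOM. From NC to WG the shares were 10.0%, 3.57% and 3.88% for MAD, RAD and ULB against GOM, 1.21% and 0.883% for RAD and ULB against MAD, and 0.372% for ULB against RAD, and no member passed. COL4A3 and COL4A4 are not counted in these contrasts, since they passed the filter only through groups in which they were high. The fit held no term for the replicate number.

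Within groups, the members fell into sets that varied together. After the mean of each group was removed, COL4A1 correlated over all RNA-seq samples with COL4A2 (r = 0.91), HSPG2 (r = 0.89), NID1 (r = 0.86) and LAMC1 (r = 0.77). LAMA4 correlated with LAMB1 (r = 0.70) and not positively with COL4A1 (r = -0.21) or HSPG2 (r = -0.24), although LAMB1 and LAMC1 are chains of the same trimers (r = 0.38). COL4A3 correlated with COL4A4 (r = 0.82) and weakly with COL4A1 (r = 0.08). Without the libraries that stand apart, the r of COL4A3 with COL4A4 was 0.79, that of LAMA4 with LAMB1 0.63 and that of COL4A1 with COL4A2 0.92. These are descriptions over libraries that also differ in PCG share, with which the members correlated at r = 0.11 to 0.36.

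Across the 12 group means of log2(TPM + 1), the genes most like COL4A1 among 15067 others were PC, the pyruvate carboxylase of gluconeogenesis and lipogenesis (r = 0.96), ARHGAP24 (r = 0.95), OPTN (r = 0.95), NID1 (r = 0.95) and 1 identifier with no symbol (r = 0.95). COL4A2 stood at rank 43 (r = 0.89). Those most like COL4A4 were COL4A3 (r = 0.97), SYTL5 (r = 0.95), FAM78B (r = 0.93), CARMIL3 (r = 0.91) and PENK, which encodes the enkephalin precursor (r = 0.91). These 12 means include WL ULB, for which COL4A4 was chosen and in which it was highest, so that the order for COL4A4 rests on that value.

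The other genes of the pathway were read from lists of 26 further basement membrane genes, 12 receptors and 14 genes of collagen IV assembly, of which 25, 11 and 12 were matched. Of 22 further basement membrane genes tested from NC to WL in GOM, 4 were called higher and 3 lower, with 5 and 5 of 22 in MAD, 4 and 3 of 21 in RAD and 2 and 3 of 22 in ULB. Their median log2 fold change was 0.16, -0.03, -0.09 and -0.08, against -0.01, -0.01, 0 and -0.03 for all PCGs. NTN4, a netrin that binds laminin, rose in GOM (1.00 ± 0.22, adjusted p = 0.00066), MAD (1.04 ± 0.19, adjusted p = 0.00020) and RAD (1.22 ± 0.16, adjusted p = 7.4e-06). LAMC3, the gamma3 laminin chain, fell in MAD (-2.54 ± 0.55, adjusted p = 0.00098) and RAD (-2.06 ± 0.38, adjusted p = 0.00021). SPARC, a collagen-binding matricellular protein, fell in ULB (-0.92 ± 0.19, adjusted p = 0.0032), where LAMB3 (1.29 ± 0.34, adjusted p = 0.014) and COL15A1 (0.88 ± 0.20, adjusted p = 0.0058) rose.

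Of the 12 assembly genes tested from NC to WL, 2 were called higher and 1 lower in GOM, 1 and 1 in MAD, 1 and 1 in RAD, and 1 and 0 in ULB, with median log2 fold changes of -0.08, -0.30, -0.08 and 0.05. SERPINH1, the collagen chaperone of the endoplasmic reticulum, was called higher in all 4 ATs: 1.14 ± 0.24 in GOM (adjusted p = 0.00037), 0.67 ± 0.27 in MAD (adjusted p = 0.044), 1.04 ± 0.25 in RAD (adjusted p = 0.0024) and 1.49 ± 0.23 in ULB (adjusted p = 0.00042). In ULB its level was 71.3 through 111 to 132 TPM in NC and 209.8 through 326 to 739.5 TPM in WL. P3H2, a prolyl 3-hydroxylase that acts on collagen IV, fell in GOM (-0.62 ± 0.16, adjusted p = 0.0025), MAD (-0.64 ± 0.18, adjusted p = 0.0060) and RAD (-0.63 ± 0.17, adjusted p = 0.0043). SERPINH1 thus rose in the ATs in which COL4A1 fell.

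Of the 11 receptors tested from NC to WL, 2 were called higher and 3 lower in GOM, 1 and 2 in MAD, 2 and 2 in RAD, and 0 and 1 in ULB. DDR1, a receptor tyrosine kinase for collagen, rose in GOM (0.98 ± 0.16, adjusted p = 3.4e-05), MAD (0.63 ± 0.20, adjusted p = 0.013) and RAD (1.10 ± 0.17, adjusted p = 3.8e-05), and BCAM, a laminin receptor, fell in MAD (-1.15 ± 0.27, adjusted p = 0.0017) and RAD (-0.83 ± 0.18, adjusted p = 0.00090). DAG1, the dystroglycan that anchors laminin, fell in ULB (-0.64 ± 0.21, adjusted p = 0.043). From WG to WL the 3 lists had 1, 0 and 1 genes called higher in GOM and 1, 0 and 0 lower, and 2, 0 and 0 higher and 4, 1 and 3 lower in MAD, in the order further genes, assembly genes and receptors.

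The A-B index, a score without unit that is positive in the active compartment A and negative in B, was read in the 20 kb bin that holds each gene start; COL4A1 and COL4A2 share 1 bin and COL4A3 and COL4A4 another, which leaves 7 bins for 9 genes. The bin of COL4A1 and COL4A2 was in compartment A in every one of the 240 samples, with group means of 4.58 to 5.30. Those of HSPG2, LAMC1, LAMA4 and NID1 were also in A in every sample, and that of LAMB1 in all but 4 samples. The bin of COL4A3 and COL4A4 was negative in every group mean and lay in A in 7 samples.

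**Figure D4:**
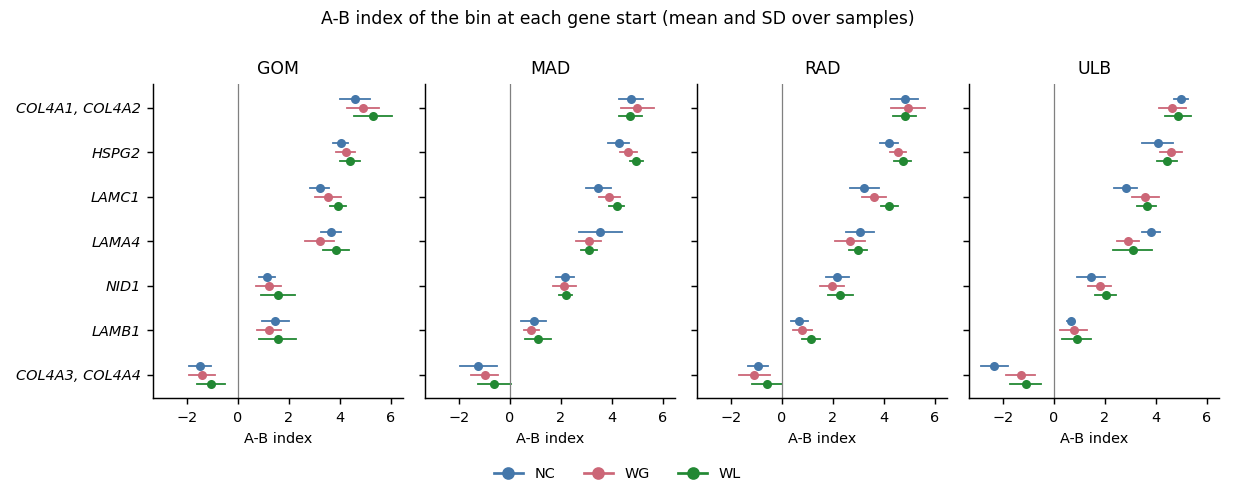
The A-B index (horizontal axis, no unit; positive is compartment A) is shown for the bin at each gene start as the mean and SD over samples in each AT and group. The bin of COL4A3 and COL4A4 lies below 0 in all 12 groups, lowest in NC ULB at -2.34.

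In ULB the COL4A3 and COL4A4 bin rose from -2.34 ± 0.53 (SD, n = 5) in NC to -1.30 ± 0.56 (n = 39) in WG, a difference of 1.03 ± 0.26 (SE; adjusted p = 0.012 by limma), and to -1.10 ± 0.60 (n = 10) in WL, a difference of 1.24 ± 0.30 from NC (adjusted p = 0.011). A call needed an adjusted p below 0.05 and a difference above 0.75. From WG to WL in ULB, where the transcript was higher, the difference was 0.20, a description. In the visceral ATs the differences of this bin between groups were -0.15 to 0.63, and none was called. Calls were made for 6.15% of 113298 bins from NC to WG and 13.6% from NC to WL in ULB. In GOM, MAD and RAD the shares were 2.79%, 4.47% and 4.32% from NC to WG, 10.1%, 11.2% and 15.8% from NC to WL, and 2.53%, 1.01% and 3.83% from WG to WL. The median bin itself moved by 0.25 and 0.14, and after quantile normalization the split of calls from NC to WG went from 6316 higher and 656 lower to 1187 and 1261, and from NC to WL from 13118 and 2285 to 6790 and 4774. The difference of the COL4A3 and COL4A4 bin from NC to WL was then 1.14 ± 0.28 (adjusted p = 0.010), and from NC to WG it was 0.88 ± 0.27 (adjusted p = 0.059). With the mean over all bins of a gene in place of the bin at its start, no member was called from NC to WG in ULB, and without NC replicate 5 only 1 was.

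Of the other bins, LAMA4 fell in ULB from NC to WG (-0.90 ± 0.20, adjusted p = 0.0062; after quantile normalization -1.02 ± 0.23, adjusted p = 0.012), while its transcript differed by 0.20 ± 0.16 on the log2 scale. LAMC1 rose in ULB from NC to WG (0.76 ± 0.24, adjusted p = 0.037) and to WL (0.81 ± 0.23, adjusted p = 0.026) and in RAD from NC to WL (0.98 ± 0.20, adjusted p = 0.00049), where 15.8% of bins were called and the median bin moved by 0.28. From NC to WL in ULB the LAMA4 bin differed by -0.71 ± 0.34 (adjusted p = 0.16), and after quantile normalization by -1.04 ± 0.34 (adjusted p = 0.045). After quantile normalization the RAD calls split as 6177 higher and 4814 lower in place of 17254 and 667, and LAMC1 was under the limit there (0.62 ± 0.20) and not called in ULB. The COL4A1 and COL4A2 bin was called in no diet comparison.

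H3K27ac regions were tabulated by ROSE in 18 pooled libraries (4 NC, 10 WG and 4 WL), without replicates and with peaks near start sites left out by the study's setting, and a region was assigned to a gene with a flank of 10 kb. COL4A1, COL4A2, LAMA2, LAMA4, LAMB1, LAMC1, NID1 and HSPG2 had a region in all 18 tables, as did 61.2% of the 3614 autosomal PCGs at least as long as the shortest member matched. A super-enhancer was marked at COL4A2 in 18 tables, at COL4A1 and HSPG2 in 17 each, at LAMA4 and NID1 in 14 each, at LAMC1 in 11, at LAMB1 in 5 and at LAMA2 in 0. COL4A1 and COL4A2 overlap, and in most tables the strongest region was the same for both, so their marks are not separate counts. Of PCGs of that length, 15.7% had one in 9 tables or more and 1.38% in all 18.

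COL4A3 had a region in 17 tables and COL4A4 in 2, none of them in WL, and neither had a super-enhancer in any table. LAMC1 was marked in 1 of 4 NC, 6 of 10 WG and 4 of 4 WL tables, and LAMB1 in 2 NC, 0 WG and 3 WL tables. COL4A1 kept its mark in all 4 WL tables, in which its transcript was lower than in NC. The number of super-enhancers over all genes also differed between the tables, with 932 to 1211 in NC, 503 to 1752 in WG and 1346 to 1652 in WL. These are counts of pooled tables, with no test.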

How the data were processed

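Per the study's methods, the authors quantified stranded total RNA-seq reads with kallisto 0.43.0 against genes of Sscrofa11.1 and deposited, for each gene and sample, TPM and estimated counts, summed by gene with tximport. The TPM were scaled over PCGs and non-coding genes together. From Hi-C contact matrices normalized between samples, the authors derived the deposited A-B index, a score per bin. H3K27ac reads were mapped with BWA 0.7.15 to Sscrofa11.1, and the deposited ROSE tables hold the signal of each region in pooled reads, of which the super-enhancer mark and the position were used.

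Samples were grouped by their labels. Columns that match no sample, 9 in the RNA and A-B index tables, were not used. Genes and motifs were placed with the RefSeq annotation and genome of Sscrofa11.1. The members and the lists were chosen with earlier results of these data known. All members were to be named, with at most 2 called genes a direction of each list per comparison, the 5 genes most like COL4A1 and the 5 most like COL4A4. Marker genes were named because a result stood beside them.

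Estimated counts were rounded and tested, over all PCGs that exceeded 0.5 TPM in 80% or more of a group's samples, with edgeR 4.0.16 (quasi-likelihood test, TMM, Benjamini-Hochberg adjustment) in R 4.3.3. A call needed a fold change above 1.5 and an adjusted p below 0.05. Diet comparisons used the samples of 1 AT, comparisons of ATs those of 1 diet, and differences of effects all 12 groups. The A-B index was tested over all bins with limma 3.58.1. COL4A3 and COL4A4, which passed the filter only through the groups in which they were high, were described, and for COL4A4 in the visceral ATs the fit with no filter was used. The ratio of COL4A1 to COL4A2 was described. The scripts were tested on simulated data with 200 changed genes.

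Alternatives were DESeq2 1.42.0, RLE factors, no filter, a term for PCG share or removal of libraries below 88%, a replicate block, and leaving out each NC ULB replicate. Leaving out WL replicate 9, leaving out libraries that stand apart, the unblocked fit on shared numbers and the ratio were added after seeing the data. Replicate numbers recur across ATs. The rule for pairing asked that every correlation of same-numbered deviations be over 0.1, which 4 of 18 pairs of ATs met. Pairs that failed it could still be linked by number. For GOM against MAD in WG, the median r was 0.66, against -0.10 for other numbers. The main fits between ATs and the fit of all 12 groups held no term for the number, so they do not account for a pig shared by ATs. Between diets a number is shared by different pigs.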

Additional observations from a re-analysis of the deposited data

Results flagged for a closer look

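Of 54 sets of 4 to 10 libraries of 1 member in 1 group, 7 held a library far from the others, where chance gives about 1 in 20. In WL, replicate 9 gave 4 of the 7. Its COL4A3 was 1.18 TPM in GOM, where the next library had 0.745, and 0.969 TPM in RAD, where the next had 0.623. Its COL4A4 was 3.71 TPM in GOM against 1.80 in the next library, and 3.82 TPM in RAD against 1.501. Its PCG share was 70.8% in GOM and 92.2% in RAD. In NC ULB, replicate 12 (PCG share 96.3%) had 3.48 TPM of COL4A4 and the next library 1.13. In NC GOM, replicate 6 had 192 TPM of LAMA4 and the next library 120.2. The PCG share of replicate 6 was 96.0%, against a median of 79.0% in NC GOM. In WL GOM, replicate 4 (PCG share 83.3%) had 240.5 TPM of HSPG2 and the next library 82.1.

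The change of LAMC1 from WG to WL was larger in RAD than in MAD by 0.52 ± 0.16 on the log2 scale (adjusted p = 0.042 by edgeR's quasi-likelihood test over all PCGs).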

How the results depend on the processing

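No transcript difference of a member called between diets changed direction under the alternatives run. As a description, COL4A4 in RAD over MAD in WL went from 0.21 to -0.04 on the log2 scale without WL replicate 9. Counts of transcripts are over the 7 members other than COL4A3 and COL4A4. From WG to WL, the 1 member called in GOM, COL4A1, became 0 with a term for PCG share, 0 without libraries of low PCG share and 0 with the replicate block, the 2 in MAD became 0 without low-share libraries, and the 0 in RAD became 1, HSPG2, with DESeq2 and 1 without the block on the shared numbers. From NC to WL, the 3 in MAD became 1 without low-share libraries. The 2 in ULB became 1 without low-share libraries, 0 with the replicate block and 0 without it on the same libraries, and 2 to 4 when an NC replicate was left out, with 4 without replicate 2, where LAMB1 (0.65, adjusted p = 0.020 by edgeR) and NID1 (-0.63, adjusted p = 0.039) passed the fold limit. Between ATs, the 8 calls in NC became 0 without low-share libraries, 3 with the block, 3 without it on shared numbers and 7 to 9 with an NC ULB replicate left out, and the 10 in WL became 5 without low-share libraries. Calls of the A-B index are counted by member. COL4A1 and COL4A2 share 1 bin and COL4A3 and COL4A4 another, so a call of either bin counts for 2 members. Of all bins, 6.15% were called in ULB from NC to WG and 13.6% from NC to WL. For the A-B index in NC against WG, the 4 members called in ULB became 1 after quantile normalization, 0 with the mean of all bins, 0 with the block and 1 to 4 with a replicate left out (1 without replicate 5), and the 0 in MAD became 1 (LAMA4) after quantile normalization. From NC to WL, the 0 in GOM became 2 with the block, the 0 in MAD 1 with quantile normalization and 1 with the block, the 1 in RAD 0 with quantile normalization and 0 with the mean of all bins, and the 3 in ULB 0 with the block and 2 to 3 with a replicate left out. The difference of the COL4A1 to COL4A2 ratio from NC without low-share libraries was -0.89 in GOM. The cause of these changes was not tested, and the block and the fits without low-share libraries used fewer samples. Between diets the block matched different pigs that carry the same number. Calls lost or gained with the block in diet comparisons therefore say nothing about a pairing. Of the values of single members under the alternatives, 158 kept their call or lack of it, 15 lost a call and 6 gained one. Depth limits COL4A3 and COL4A4, whose levels near 0.5 TPM decide whether they are tested.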
